A study of Rattus norvegicus with 8 samples.

Results

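Efferocytosis is the engulfment of dying cells, and 8 genes of its recognition step were followed through the injured rat spinal cord. The 8 were taken by symbol: the receptors Mertk, Axl, Tyro3, Cd36 and Stab1 and the bridging ligands Gas6, Pros1 and Mfge8. Of these, 7 were among the 32623 genes of the deposited gene list, and Cd36 was not analysed here. They were measured as UMIs, which are molecule-tagged counts, in each gated cell type, each macrophage state and each injury group.

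The spinal cord of female 8-week-old Wistar rats was dissociated 7 days after surgery, and single cells were captured by droplet 3' RNA sequencing. In the 3 contusion groups a 10 g weight was dropped on the exposed cord at vertebra T9, from 12.5 mm in the mild, 25 mm in the moderate and 50 mm in the severe group. The sham group had its cord exposed without the weight drop. A total of 10 mm of cord around the lesion was taken, so each library of an injured group mixed lesion with adjacent tissue. Each group had 2 libraries, named here by group and replicate number (sham 1, sham 2 and so on). The study counts as many sequenced cords as libraries, while the labels name no animal, so a p-value measures the spread between these libraries.

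Mertk, Axl and Tyro3 form the TAM family of receptor tyrosine kinases. They do not touch the dying cell directly: Gas6 and Pros1 (protein S) bind phosphatidylserine on its surface with one end and a TAM receptor with the other. Gas6 binds all TAM receptors, while Pros1 is a ligand of Mertk and Tyro3. Mfge8 also binds phosphatidylserine but bridges to integrins, and Stab1 (stabilin-1) is a large scavenger receptor that recognises phosphatidylserine itself. In the central nervous system microglia and infiltrating macrophages clear dead cells and myelin debris with these molecules, and TAM signalling also dampens their inflammatory response.

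The stretch just before the gene start is shown for the 4 members whose distribution or injury response the results turn on. These are Mertk and Pros1, which fell in macrophages/microglia, and Axl, which moved in oligodendrocytes and in 2 macrophage states. The last is Tyro3, which had most of its UMIs in oligodendrocytes. Each line gives 250 bases upstream of the RefSeq start on build GRCr8, 5′ to 3′ along the gene. Capitals mark GAGGAA (or TTCCTC on the other strand), a PU.1-type core, and GGGCGG (or CCGCCC), a GC box. The 2 motifs do not overlap each other here.
Mertk, chr3:136392324-136392573, plus strand: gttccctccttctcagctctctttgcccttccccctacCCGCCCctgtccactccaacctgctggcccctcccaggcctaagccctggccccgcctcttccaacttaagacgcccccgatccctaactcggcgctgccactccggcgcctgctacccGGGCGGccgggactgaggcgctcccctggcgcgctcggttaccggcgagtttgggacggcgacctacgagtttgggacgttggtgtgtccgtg
Pros1, chr11:13677049-13677298, plus strand: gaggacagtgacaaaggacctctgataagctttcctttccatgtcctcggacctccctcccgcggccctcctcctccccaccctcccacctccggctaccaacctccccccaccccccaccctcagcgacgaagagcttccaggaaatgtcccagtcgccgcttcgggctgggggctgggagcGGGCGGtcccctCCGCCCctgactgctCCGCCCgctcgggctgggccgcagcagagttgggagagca
Axl, chr1:90424010-90424259, minus strand: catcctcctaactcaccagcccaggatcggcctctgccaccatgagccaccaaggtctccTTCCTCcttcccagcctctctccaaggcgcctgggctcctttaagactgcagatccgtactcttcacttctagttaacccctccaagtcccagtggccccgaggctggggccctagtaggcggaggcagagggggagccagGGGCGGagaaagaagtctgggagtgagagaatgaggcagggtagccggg
Tyro3, chr3:127231653-127231902, plus strand: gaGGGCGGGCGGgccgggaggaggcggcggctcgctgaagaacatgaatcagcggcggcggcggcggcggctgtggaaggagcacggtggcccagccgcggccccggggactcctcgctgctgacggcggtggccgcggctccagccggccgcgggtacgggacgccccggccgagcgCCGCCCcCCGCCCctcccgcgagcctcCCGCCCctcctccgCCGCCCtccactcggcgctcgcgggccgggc
All 8 members had an entry in the promoter table. GGGCGG on either strand stood in 6 of the 8 member promoters (Axl, Mfge8, Tyro3, Mertk, Pros1 and Gas6), against 30.5% of all 33469 promoters. GAGGAA stood in 4 of the 8 (Axl, Mfge8, Cd36 and Stab1), against 23.3%. TATAAA was found in Cd36 alone, against 12.9%, and CCAAT in 0 of the 8, against 34.0%. GC content of the printed stretches was 68.0% for Mertk, 68.4% for Pros1, 61.6% for Axl and 82.0% for Tyro3. These matches are descriptions of letters in a window and not binding sites.

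The libraries held between 31482153 and 131045446 UMIs as deposited. Of 68658 deposited cells, 55474 were kept, 47439 passed a marker gate and 8035 (14.5%, median 1503 UMIs) fell in no type. Another 4997 gated cells lay near the gate's limit. The gate took 28055 macrophages/microglia, of which 23596 had a state. Gated macrophages/microglia had all 11 of their measured markers higher than other cells, and these markers also define the gate. No library held 20 ependymal cells, and they are not described. The sham libraries stood apart from each other. Sham 1 had 52.2% neutrophils and 6.48% macrophages/microglia (595 cells), and its macrophages/microglia carried a summed neutrophil-marker level of 4958 CPM against 146 to 450 CPM in the other 7 libraries. Sham 2 had 0.0429% neutrophils and 89.8% macrophages/microglia (2096 cells). Libraries shared 5 to 40 cell barcodes per pair, at most 0.452% of the smaller one.

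Macrophages/microglia gave most of the UMIs of Mertk, Stab1 and Gas6, oligodendrocytes gave most of Tyro3, and Mfge8 was spread over many types. Of all kept UMIs, 65.4% came from macrophages/microglia. Against this share, they gave 96.9% of Mertk UMIs, 93.9% of Stab1, 79.8% of Gas6, 58.5% of Axl and 55.2% of Pros1. For Mfge8 the share was 25.1% and for Tyro3 4.18%. Oligodendrocytes, with 8.72% of all UMIs, gave 85.5% of Tyro3. Fibroblasts, with 5.76% of all UMIs, gave 30.1% of Pros1 and 19.6% of Mfge8. Oligodendrocyte precursors, with 5.79%, gave 16.5% of Axl and 23.1% of Mfge8. These shares pool 8 libraries of unequal cell makeup, so levels per library follow.

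**Figure D1:**
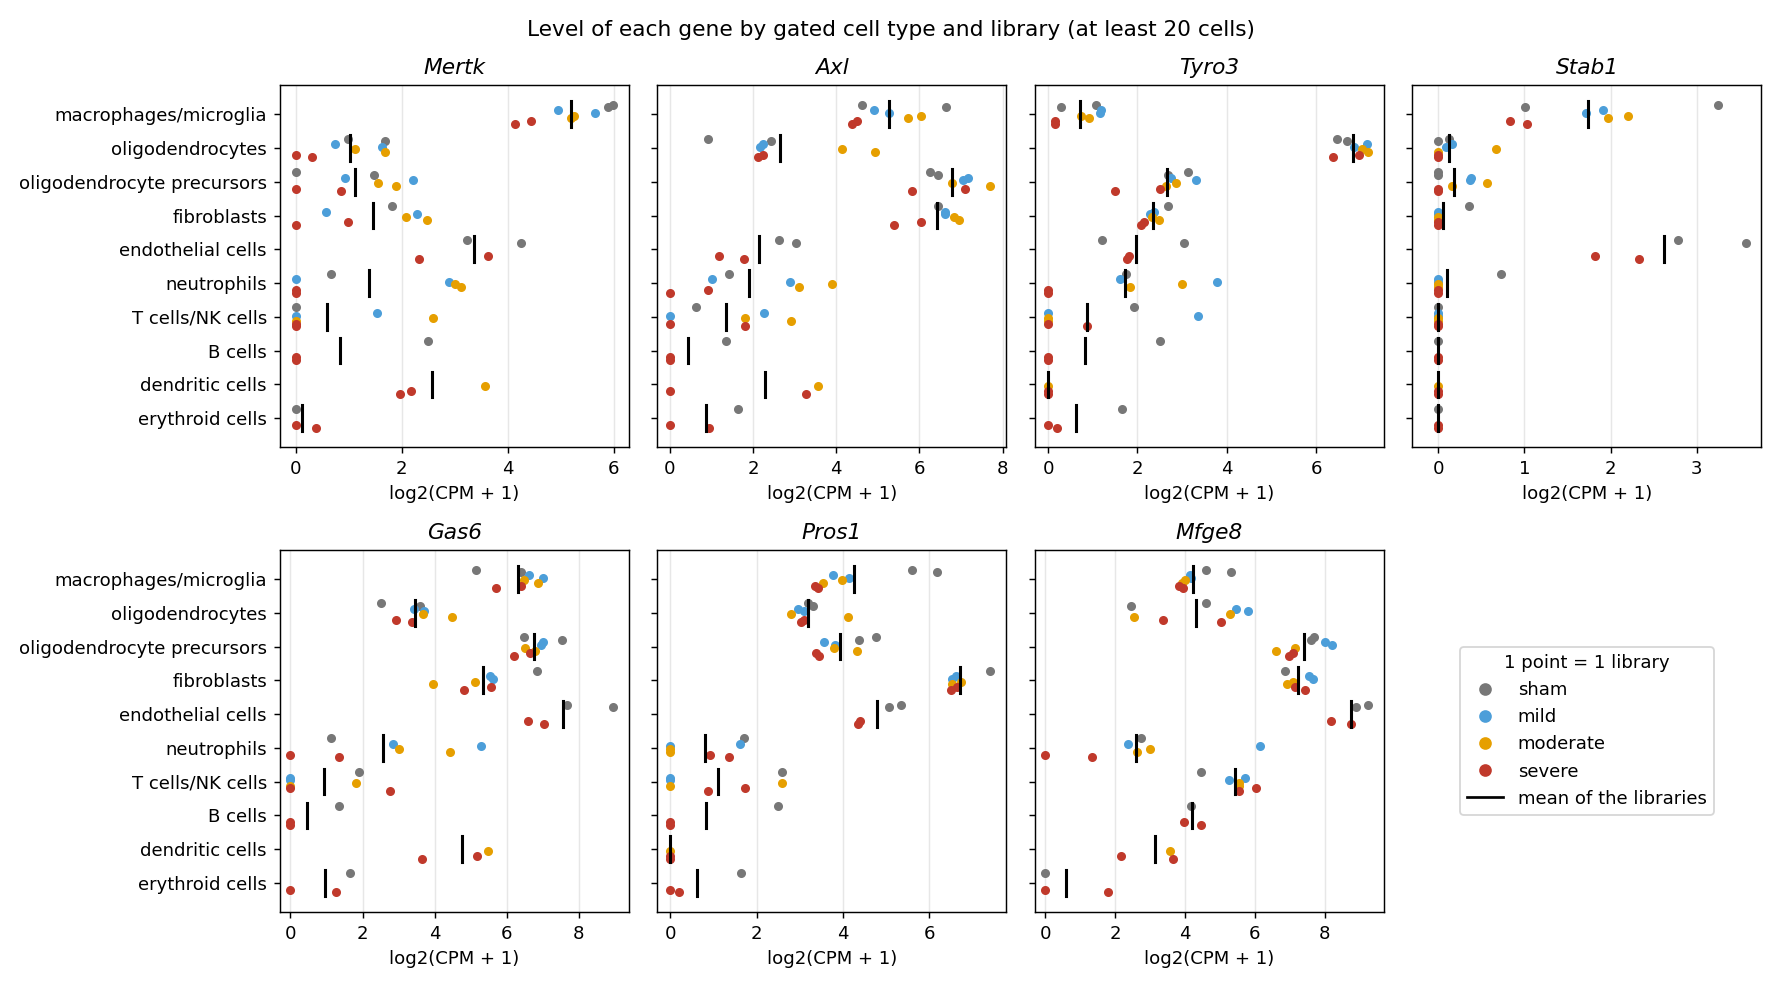
Level of each measured member, as log2(CPM + 1), where CPM is counts scaled to 1000000 UMIs, in 10 gated cell types (pericytes/smooth muscle are not drawn). Each point is a library with 20 or more such cells, coloured by injury group, and each bar is the mean of the libraries on that log scale: of the types drawn, Mertk stood highest in macrophages/microglia, Tyro3 in oligodendrocytes, Axl in oligodendrocyte precursors and fibroblasts, Pros1 in fibroblasts, and Mfge8 in endothelial cells.

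A level is the share of a gene in all UMIs of the cells concerned, scaled to 1000000 UMIs (CPM). Levels of 3' UMIs were compared within a gene and not between genes. Cell types were compared within libraries by an exact two-sided sign-flip permutation test on log2(CPM + 1), over libraries with at least 20 cells of both types. Of 63 tests between neighbours in a gene's order of mean level, 0 passed an adjusted p of 0.05 (lowest 0.123), and 7 had an unadjusted exact p under 0.05. Many of these neighbours shared too few libraries for the test to reach 0.05 at all. In a set added after seeing the data, all pairs of the 6 types held by at least 7 libraries were tested, and 56 of 105 passed, each at an adjusted p of 0.0293, some of them pairs close together in an order. With 8 libraries the smallest p this exact test allows is 0.00781. Leaving out sham 2 kept the count at 56, while leaving out any other library, or requiring 100 cells, left 0, because fewer libraries raise that smallest p. Differences between types given below are mean ± SD over libraries of the log2 difference.

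Mertk, the TAM receptor most tied to macrophage clearance of dead cells, was highest in macrophages/microglia. It stood at 38.7 ± 16.7 CPM (SD, n = 8) in them. Pericytes/smooth muscle had 12.5 ± 17.7 CPM (SD, n = 2) from 3 UMIs in all, endothelial cells 10.5 ± 5.91 CPM (SD, n = 4) from 32 UMIs and dendritic cells 5.75 ± 4.41 CPM (SD, n = 3). Neutrophils had 3.09 ± 3.70 CPM (SD, n = 7), fibroblasts 2.25 ± 1.78 CPM, oligodendrocyte precursors 1.48 ± 1.29 CPM, oligodendrocytes 1.20 ± 0.890 CPM and T cells/NK cells 0.988 ± 1.91 CPM. Mertk was higher in macrophages/microglia than in oligodendrocytes in 8 of 8 libraries, by 4.17 ± 0.44 on the log2 scale, and than in oligodendrocyte precursors in 8 of 8, by 4.07 ± 0.90. Fibroblasts, neutrophils and T cells/NK cells were lower as well in 7 of 7 libraries each, so all 5 pairs with macrophages/microglia passed. Of the 10 pairs among the other types 0 passed.

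Cells were also thinned to 1000 UMIs each so that detection could be compared at 1 depth, with exact binomial 95% intervals that cover counting error only. Mertk was then seen in 3.50% of macrophages/microglia (3.29 to 3.72%), and in 29.4% unthinned at a median of 10778 UMIs. Erythroid cells, which should lack it, had it in 0 of 832 thinned cells, which allows up to 0.361%, and in 0.237% unthinned at a median of 8027 UMIs. Of the 845 erythroid cells, 726 came from severe 2, so this background is mostly that of a single library. The thinned macrophage/microglia shares were 4.39% for Axl, 7.86% for Gas6, 1.85% for Pros1, 1.78% for Mfge8, 0.261% for Stab1 and 0.0798% for Tyro3. Unthinned they were 27.7, 49.1, 15.7, 14.6, 2.62 and 0.848%. In thinned erythroid cells Axl and Mfge8 were seen in 0.120% each, Gas6 in 0.481% and Pros1, Stab1 and Tyro3 in 0 of 832. At this depth the Stab1 and Tyro3 shares in macrophages/microglia lay under the 0.361% that the erythroid count of 0 allows, so they were not told apart from this background. Unthinned, erythroid cells had Stab1 in 0%, Tyro3 in 0.237%, Axl in 0.592% and Gas6 in 0.947%. Cells under 1000 UMIs were left out, 476 macrophages/microglia and 13 erythroid cells.

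Axl, the TAM receptor that binds Gas6 alone, had its higher levels outside the immune cells. Its mean was 192 ± 23.4 CPM (SD, n = 2) in pericytes/smooth muscle, from 36 UMIs in the sham libraries only. It was 118 ± 47.6 CPM (SD, n = 8) in oligodendrocyte precursors and 88.7 ± 28.0 CPM (SD, n = 7) in fibroblasts. Macrophages/microglia had 43.4 ± 27.3 CPM (SD, n = 8), oligodendrocytes 8.22 ± 9.84 CPM (SD, n = 8) and endothelial cells 4.03 ± 2.71 CPM (SD, n = 4). With 1 library each, neurons of moderate 2 had 169 CPM from 106 UMIs and astrocytes of moderate 1 had 118 CPM from 33 UMIs. Axl was higher in oligodendrocyte precursors than in macrophages/microglia in 7 of 8 libraries, by 1.52 ± 0.88. The exception was sham 2, at 86.5 CPM in precursors and 98.5 CPM in macrophages/microglia. Fibroblasts also exceeded macrophages/microglia, in 7 of 7 libraries and by 1.35 ± 0.37. Oligodendrocytes lay below their precursors in 8 of 8 libraries, by 4.13 ± 1.03. Of 15 pairs, 11 passed for Axl.

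Tyro3, the TAM receptor best known from neurons and myelinating cells, stood high in oligodendrocytes and close to 0 in macrophages/microglia. Its mean was 115 ± 22.8 CPM (SD, n = 8) in oligodendrocytes, with a lowest library of 81.9 and a highest of 142 CPM. Pericytes/smooth muscle had 37.5 ± 5.86 CPM (SD, n = 2) from 7 UMIs in all. Oligodendrocyte precursors had 5.73 ± 2.11 CPM (SD, n = 8), fibroblasts 4.10 ± 0.729 CPM (SD, n = 7) and macrophages/microglia 0.701 ± 0.499 CPM (SD, n = 8). Tyro3 was higher in oligodendrocytes than in their precursors in 8 of 8 libraries, by 4.16 ± 0.52, and than in macrophages/microglia in 8 of 8, by 6.13 ± 0.44. After thinning it was seen in 9.99% of oligodendrocytes (9.02 to 11.0%) and in 61.8% of them unthinned, at a median of 11290 UMIs. Only moderate 2 held at least 20 neurons, and its 35 neurons had 4.79 CPM of Tyro3 from 3 UMIs. Only moderate 1 held at least 20 astrocytes, and its 24 astrocytes had 32.1 CPM from 9 UMIs.

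Stab1 was sparse, with 869 UMIs in all kept cells. Endothelial cells had 5.82 ± 3.64 CPM (SD, n = 4) from 19 UMIs and macrophages/microglia 2.85 ± 2.48 CPM (SD, n = 8), while 0 UMIs were seen in T cells/NK cells, B cells, erythroid cells or pericytes/smooth muscle of the libraries with 20 such cells. For Stab1 all 5 pairs between macrophages/microglia and another tested type passed with macrophages/microglia higher, for example by 1.61 ± 0.73 over oligodendrocytes in 8 of 8 libraries. Endothelial cells met the cell minimum in 4 libraries and were not in that set of tests.

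Gas6, the shared TAM ligand, was present in endothelial cells, oligodendrocyte precursors and macrophages/microglia. Endothelial cells had 229 ± 179 CPM (SD, n = 4), from 94.4 CPM in severe 1 to 489.6 CPM in sham 2. Oligodendrocyte precursors had 112 ± 34.5 CPM (SD, n = 8), macrophages/microglia 84.9 ± 30.4 CPM (SD, n = 8), fibroblasts 46.8 ± 31.6 CPM (SD, n = 7) and oligodendrocytes 10.8 ± 4.92 CPM (SD, n = 8). Precursors and macrophages/microglia did not pass against each other, nor did either pass against fibroblasts. Both were higher than oligodendrocytes in 8 of 8 libraries, precursors by 3.31 ± 0.60 and macrophages/microglia by 2.87 ± 0.42. Of 15 pairs, 8 passed.

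Pros1, known as an anticoagulant plasma protein besides its role as a TAM ligand, was highest in mural cells and fibroblasts. Pericytes/smooth muscle had 138 ± 41.1 CPM (SD, n = 2), from 25 UMIs in the sham libraries only. Fibroblasts had 106 ± 28.3 CPM (SD, n = 7) over sham and injured libraries, with 169 CPM in sham 1. Endothelial cells had 27.9 ± 9.88 CPM (SD, n = 4), macrophages/microglia 24.1 ± 23.0 CPM (SD, n = 8), oligodendrocyte precursors 15.1 ± 5.91 CPM (SD, n = 8) and oligodendrocytes 8.52 ± 3.27 CPM (SD, n = 8). Pros1 was higher in fibroblasts than in macrophages/microglia in 7 of 7 libraries, by 2.74 ± 0.50, and than in oligodendrocyte precursors in 7 of 7, by 2.84 ± 0.36. The macrophage/microglia mean spans sham and injured libraries that differ, as described below. Of 15 pairs, 12 passed, the most of any member.

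Mfge8, the milk-fat-globule protein that links phosphatidylserine to integrins, was led by vessel cells. Pericytes/smooth muscle had 1134 CPM in sham 1 and 1111 CPM in sham 2, the 2 libraries with at least 20 such cells. Endothelial cells had 446 ± 129 CPM (SD, n = 4), oligodendrocyte precursors 181 ± 69.8 CPM (SD, n = 8) and fibroblasts 153 ± 34.0 CPM (SD, n = 7). T cells/NK cells had 44.3 ± 13.2 CPM (SD, n = 7), oligodendrocytes 26.2 ± 18.9 CPM (SD, n = 8) and macrophages/microglia 19.0 ± 8.47 CPM (SD, n = 8). B cells, neutrophils, dendritic cells and erythroid cells had lower means, from 0.825 to 17.6 CPM. Macrophages/microglia were lower than oligodendrocyte precursors in 8 of 8 libraries, by 3.18 ± 0.57, and than fibroblasts in 7 of 7, by 3.15 ± 0.44. Of 15 pairs, 8 passed.

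Macrophages/microglia were then divided into 6 states by their highest marker score: microglia-like (P2ry12, Tmem119), border-macrophage-like (Mrc1, Cd163), lipid-laden-like (Fabp5, Gpnmb), monocyte-like (Fn1, Ccr2), proliferating (Mki67, Top2a) and chemokine-high (Ccl3, Ccl4). A state is a range of a score and not a cell type, and 3516 of the 23596 cells in a state lay near a limit. No member was a marker of a type or state. Between neighbouring states, 0 of 35 exact sign-flip permutation tests passed (lowest adjusted p 0.0684), and 13 had an unadjusted exact p under 0.05. Over all pairs of states, again added after seeing the data, 46 of 105 passed, each at an adjusted p of 0.0357. Leaving out any 1 library, or requiring 100 cells, left 0 for want of libraries.

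**Figure D2:**
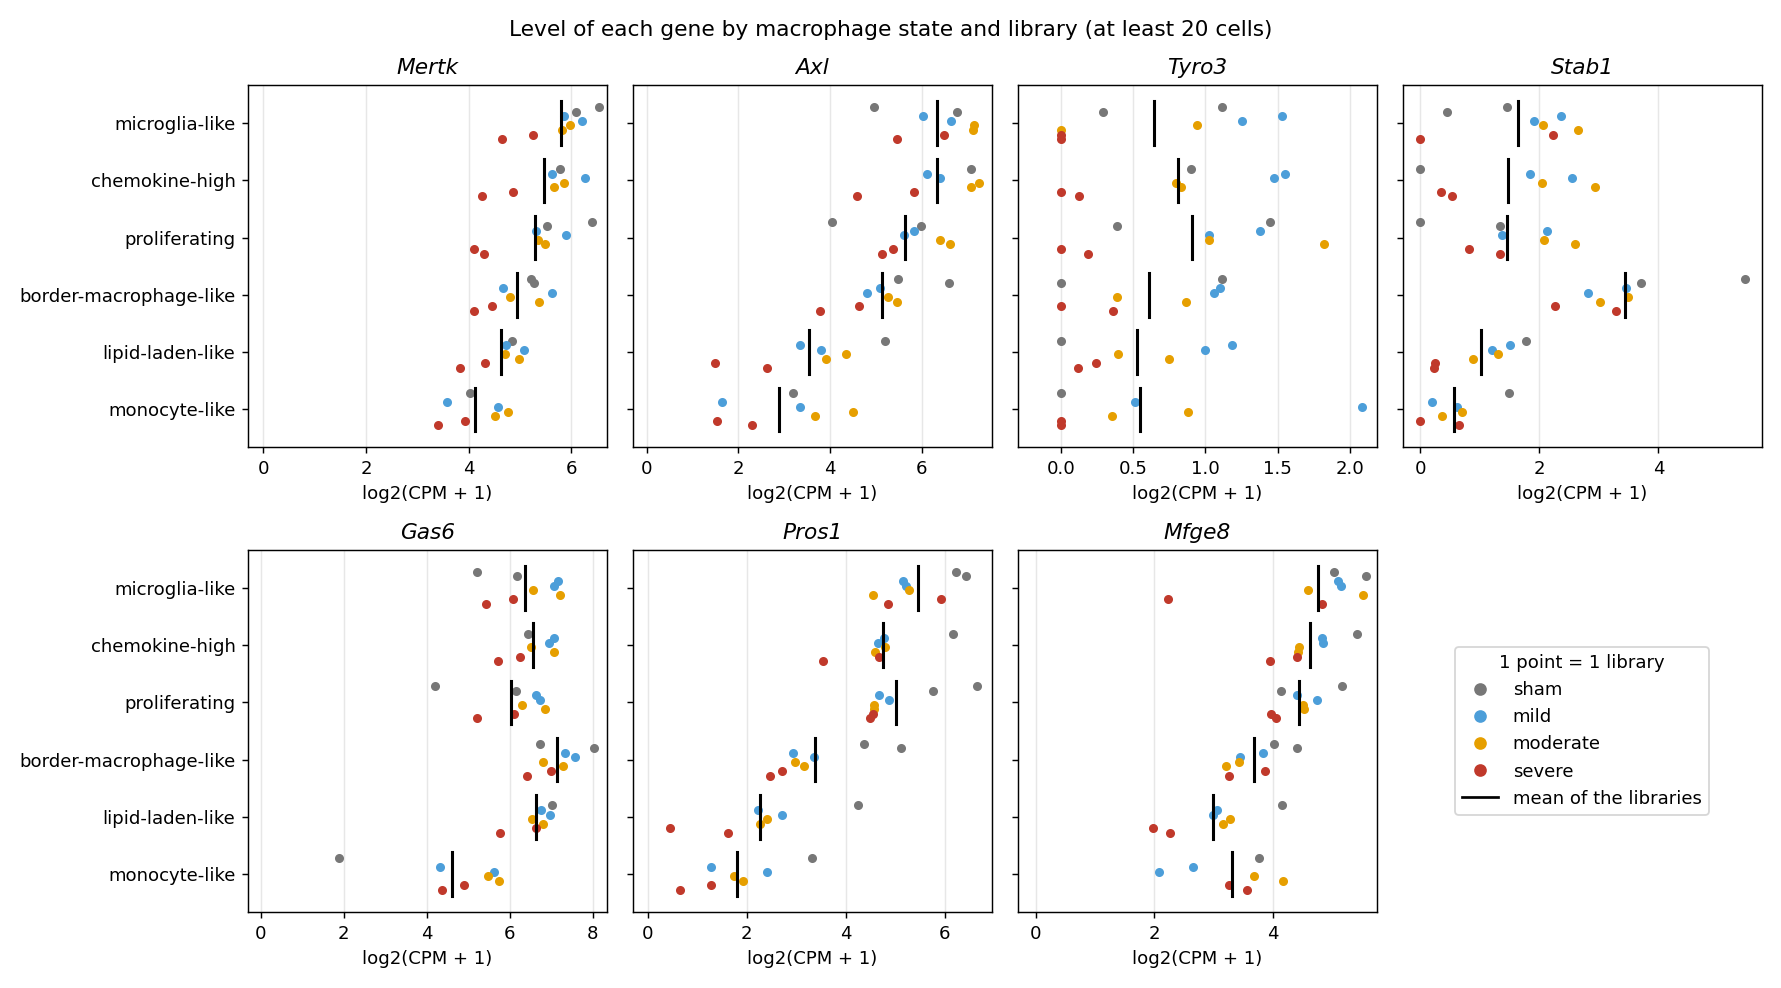
Level of each measured member, as log2(CPM + 1), in the 6 macrophage states, where each point is a library with 20 or more such cells and each bar the mean of the libraries on that log scale. Axl, Pros1 and Mertk stood high in microglia-like and chemokine-high cells and low in lipid-laden-like and monocyte-like cells, while Gas6 and Stab1 stood highest in border-macrophage-like cells.

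The receptors Mertk and Axl, and the ligand Pros1, leaned to the microglia-like end of the range. Mertk stood at 58.3 ± 20.9 CPM (SD, n = 8) in microglia-like cells, 47.2 ± 18.9 CPM (SD, n = 7) in chemokine-high and 42.9 ± 21.3 CPM (SD, n = 8) in proliferating cells. It stood at 31.3 ± 11.0 CPM (SD, n = 8) in border-macrophage-like, 24.8 ± 6.78 CPM (SD, n = 7) in lipid-laden-like and 17.2 ± 6.32 CPM (SD, n = 7) in monocyte-like cells. Microglia-like cells exceeded border-macrophage-like cells in 8 of 8 libraries, by 0.86 ± 0.33, and lipid-laden-like cells in 7 of 7, by 1.05 ± 0.18. Even proliferating cells, the third in the order, were lower than microglia-like cells in 8 of 8 libraries, by 0.50 ± 0.30.

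Axl was also low in lipid-laden-like and monocyte-like cells. Its means were 92.9 ± 47.7 CPM (SD, n = 7) in chemokine-high, 89.4 ± 41.2 CPM (SD, n = 8) in microglia-like and 54.8 ± 26.6 CPM (SD, n = 8) in proliferating cells, then 39.6 ± 24.9 CPM (SD, n = 8) in border-macrophage-like, 14.1 ± 11.3 CPM (SD, n = 7) in lipid-laden-like and 8.39 ± 6.96 CPM (SD, n = 7) in monocyte-like cells. Lipid-laden-like cells lay below microglia-like cells by 2.99 ± 1.02 in 7 of 7 libraries and below chemokine-high cells by 2.80 ± 0.83 in 7 of 7. Chemokine-high and microglia-like cells did not pass against each other.

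Pros1 was low in border-macrophage-like, lipid-laden-like and monocyte-like cells. It stood at 47.1 ± 22.8 CPM (SD, n = 8) in microglia-like, 36.7 ± 27.2 CPM (SD, n = 8) in proliferating and 29.5 ± 19.1 CPM (SD, n = 7) in chemokine-high cells. Border-macrophage-like cells had 11.8 ± 10.0 CPM (SD, n = 8), lipid-laden-like cells 5.39 ± 5.81 CPM (SD, n = 7) and monocyte-like cells 3.12 ± 2.86 CPM (SD, n = 7). Microglia-like cells exceeded border-macrophage-like cells by 2.06 ± 0.61 in 8 of 8 libraries and lipid-laden-like cells by 3.07 ± 1.12 in 7 of 7. With 10 of 15 pairs past the test, Pros1 separated the states in more pairs than any other member.

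Gas6 and Stab1 were led by border-macrophage-like cells instead. Gas6 stood at 149 ± 56.8 CPM (SD, n = 8) there, 102 ± 25.0 CPM (SD, n = 7) in lipid-laden-like, 98.8 ± 31.5 CPM (SD, n = 7) in chemokine-high and 91.9 ± 45.1 CPM (SD, n = 8) in microglia-like cells. Proliferating cells had 73.6 ± 33.8 CPM (SD, n = 8) and monocyte-like cells 30.7 ± 18.3 CPM (SD, n = 7). Border-macrophage-like cells exceeded each of the other 5 states, microglia-like cells for example by 0.78 ± 0.66 in 8 of 8 libraries and lipid-laden-like cells by 0.57 ± 0.25 in 7 of 7. Stab1 stood at 12.6 ± 12.5 CPM (SD, n = 8) in border-macrophage-like cells, where sham 1 had 43.0 CPM and the other libraries 3.81 to 12.1 CPM. No other state had a Stab1 mean above 2.64 CPM, and border-macrophage-like cells exceeded each of the 5, microglia-like cells by 1.80 ± 1.50 in 8 of 8 libraries.

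Mfge8 separated as many pairs of states as Stab1, and Tyro3 separated none. Mfge8 stood between 7.76 ± 4.52 CPM (SD, n = 7) in lipid-laden-like and 30.5 ± 13.4 CPM (SD, n = 8) in microglia-like cells. Chemokine-high cells exceeded lipid-laden-like cells for Mfge8 in 7 of 7 libraries, by 1.63 ± 0.45, and 5 of 15 pairs passed. Tyro3 had a mean of at most 1.05 ± 0.882 CPM (SD, n = 8), in proliferating cells, and 0 of its 15 pairs passed.

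The injury groups were compared on UMIs summed per library by edgeR's quasi-likelihood test over all genes, with Benjamini-Hochberg adjustment and a threshold of 0.05. Fold changes are log2 ± standard error. They use edgeR's TMM scaling between libraries, which the CPM values lack, so CPM and fold changes can differ in size and order. In macrophages/microglia 13526 genes were tested, among them all 7 measured members. Against sham, 1 member passed in mild, 1 in moderate and 2 in severe, where 6.27%, 2.31% and 7.7% of all genes passed. Between moderate and mild 0 members and 0% of all genes passed (1842 genes and 0 members at an unadjusted p under 0.05; DESeq2 called 249 genes and 0 members). Between severe and moderate 0 members and 2.65% of all genes passed, with 1 member at an unadjusted p under 0.05. The median member change against sham was -0.59, -0.29 and -1.21 in mild, moderate and severe, beside a median over all genes of -0.0039, 0.022 and -0.085. The 3 comparisons against sham share the sham libraries and are not independent of each other.

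**Figure D3:**
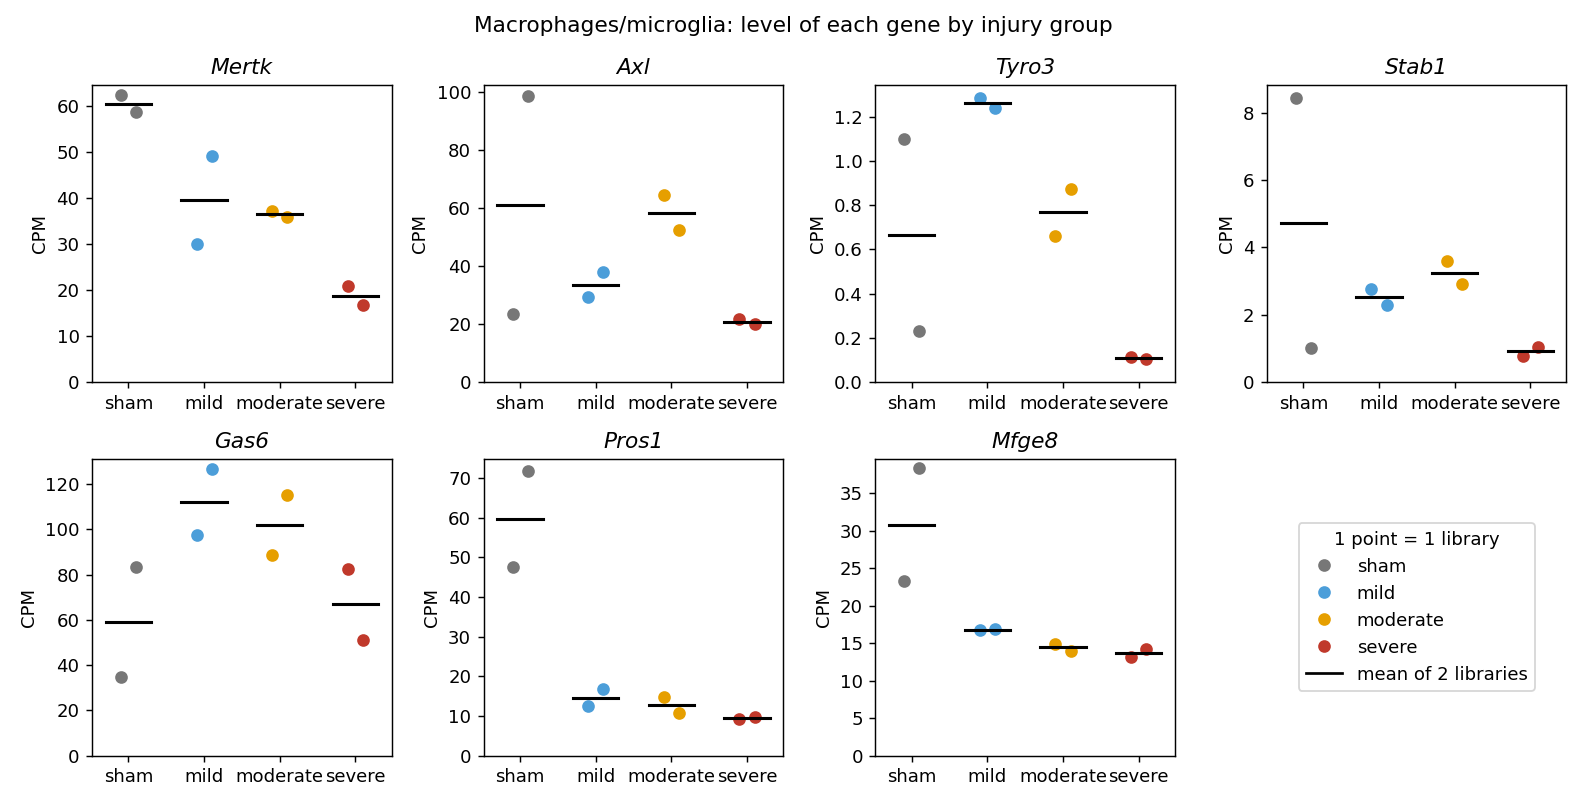
Level of each measured member (CPM) in macrophages/microglia of each library, by injury group, with 1 point per library and a bar at the group mean. Pros1 lay at 47.5 and 71.8 CPM in sham and at 9.18 to 16.7 CPM in the 6 injured libraries.

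Pros1 fell in macrophages/microglia at every injury grade. It stood at 47.5 and 71.8 CPM in sham, 12.5 and 16.7 in mild, 14.7 and 10.7 in moderate and 9.18 and 9.77 in severe, as group means ± SD (n = 2) 59.6 ± 17.1, 14.6 ± 2.95, 12.7 ± 2.89 and 9.48 ± 0.419 CPM. Both sham libraries lay above all 6 injured ones, and the injured groups overlapped or lay close together. The change was -1.96 ± 0.36 in mild (adjusted p = 0.0277, edgeR), -2.23 ± 0.36 in moderate (adjusted p = 0.0320) and -2.19 ± 0.36 in severe (adjusted p = 0.0151). Between injury grades the change was -0.26 ± 0.35 for moderate against mild and 0.03 ± 0.35 for severe against moderate, and neither passed. The direction held when any library was left out, but the calls did not. The mild call was lost without mild 1, mild 2, moderate 1, severe 1 or severe 2 (-2.32 to -1.42 over all 8 such fits), the moderate call without any 1 of the 6 injured libraries (-2.61 to -1.69) and the severe call without severe 1 or severe 2 (-2.55 to -1.65). All 3 calls were also lost when only the groups compared entered the fit, and in each of the other 7 settings tried they held.

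The makeup of the gated cells moved with this fall. Microglia-like cells, the state richest in Pros1, were 27.6 and 64.2% of macrophages/microglia in sham, 4.98 and 9.88% in mild, 12.1 and 1.83% in moderate and 2.77 and 3.46% in severe. Summed neutrophil markers were high in sham 1 and not in sham 2, and Pros1 was high in both. The part of neutrophil RNA in the Pros1 values was not tested. Within states, Pros1 was again lower after injury. In proliferating cells it stood at 98.7 and 53.2 CPM in sham, 24.6 and 28.4 in mild, 22.6 and 22.8 in moderate and 22.3 and 21.3 in severe, and fell by 1.39, 1.75 and 1.41 on the log2 scale in mild, moderate and severe (adjusted p = 0.0403, 0.0323 and 0.0440, edgeR's quasi-likelihood test). In border-macrophage-like cells it stood at 19.7 and 33.6 CPM in sham, 6.58 and 9.26 in mild, 6.91 and 7.94 in moderate and 5.51 and 4.53 in severe. It fell there by 1.84 in moderate (adjusted p = 0.0472) and by 2.06 in severe (adjusted p = 0.0389, edgeR), and the mild change of -1.70 ± 0.39 did not pass (adjusted p = 0.0523). In microglia-like cells themselves it stood at 73.3 and 85.3 CPM in sham, 34.7 and 35.9 in mild, 37.9 and 22.3 in moderate and 59.2 and 27.7 in severe. Both sham libraries lay above all injured ones there too, but the changes of -1.26 ± 0.39, -1.46 ± 0.40 and -0.91 ± 0.43 did not pass (adjusted p = 0.142, 0.161 and 0.388, edgeR). How much of the fall over all macrophages/microglia came from their makeup was not tested.

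These within-state calls rested on few libraries. The border-macrophage-like calls were lost without any 1 library other than sham 1 (moderate -2.21 to -1.31, severe -2.41 to -1.51). Of 9 other settings, the moderate call held in 3 and the severe call in 5. Both were lost with the replicate number as a block, with only the groups compared, with the stricter state gate and with no removal of doublets, and the moderate one also with the stricter marker gate and with the mitochondrial limit of 20%. The proliferating calls in mild and severe were lost without any 1 library other than sham 2 (mild -1.67 to -1.10, severe -1.70 to -1.12), and the moderate one without mild 1, moderate 1 or moderate 2 (-2.04 to -1.46). In the other settings all 3 were lost with only the groups compared, mild and severe with the replicate block, and mild and moderate with scaling by library size only. In lipid-laden-like and chemokine-high cells sham 1 had under 20 cells, so sham was not tested. There Pros1 stood at 18.0 CPM in sham 2 and 0.365 to 5.50 CPM in the injured libraries for lipid-laden-like cells, and at 71.0 against 10.7 to 26.7 CPM for chemokine-high cells. Sham 2 had 13 monocyte-like cells, so sham was not tested in that state either. Monocyte-like cells of sham 1 had 9.02 CPM and those of the injured libraries 0.564 to 4.31 CPM.

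**Figure D4:**
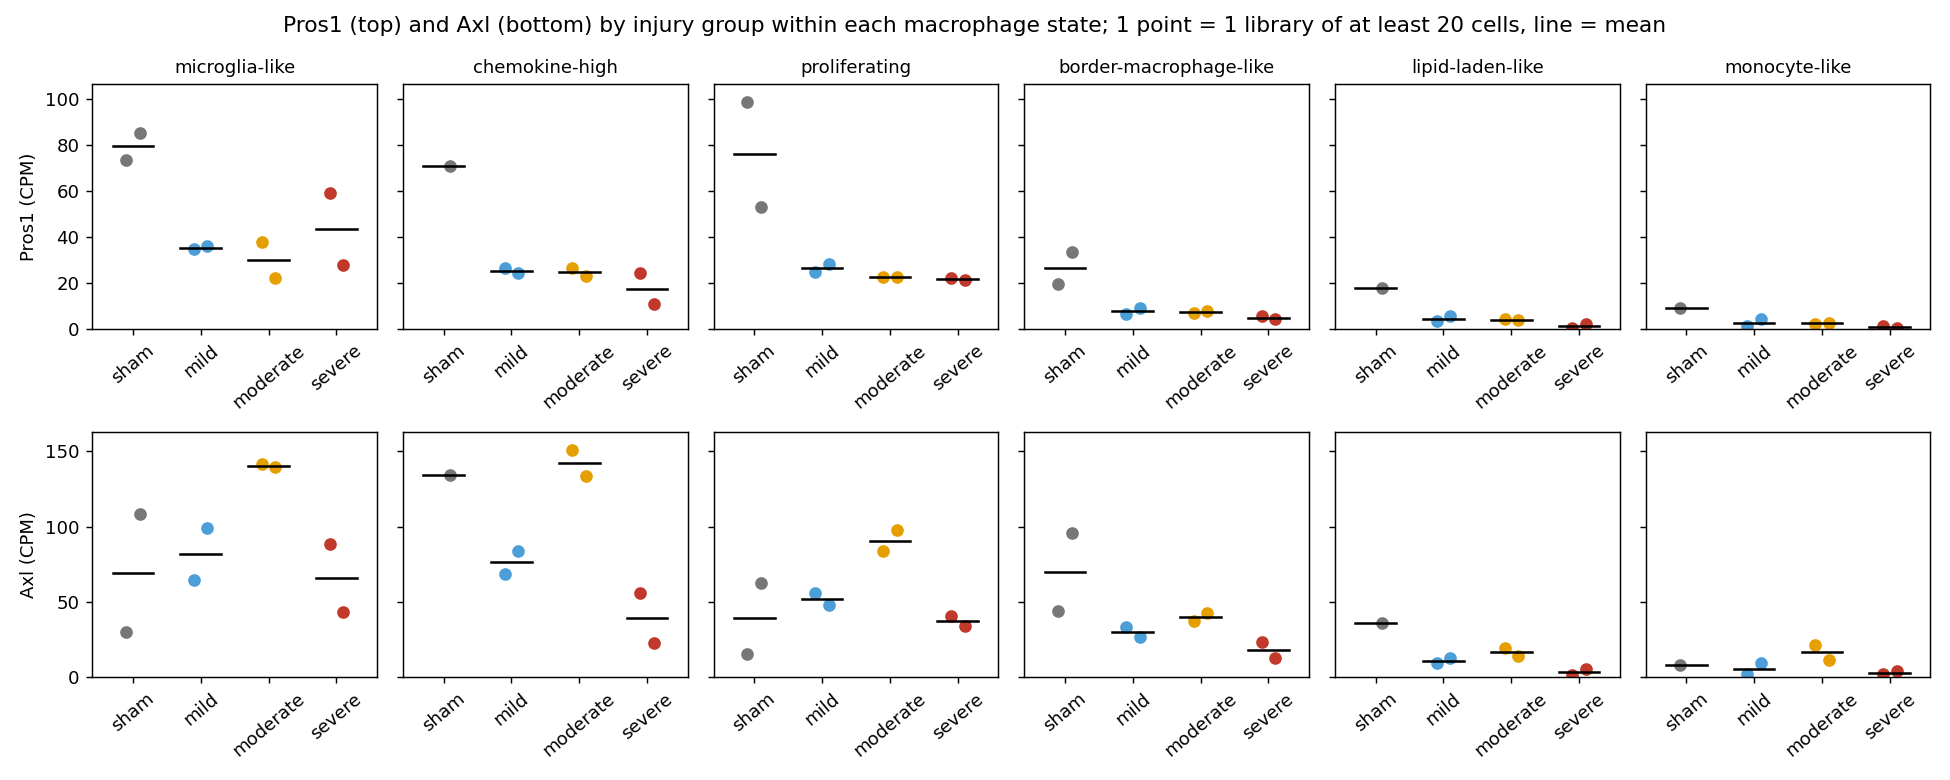
Pros1 and Axl levels (CPM) by injury group within macrophage states, where each point is a library with 20 or more such cells and each line a mean. Pros1 in sham libraries stood above the injured ones in microglia-like, border-macrophage-like and proliferating cells, while both moderate libraries had the highest Axl in microglia-like and proliferating cells.

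Mertk was lower in severe injury. In macrophages/microglia it stood at 62.2 and 58.6 CPM in sham, 30.0 and 49.1 in mild, 37.1 and 35.7 in moderate and 20.8 and 16.6 in severe. In CPM, without TMM scaling, sham libraries were the highest and severe libraries the lowest, and no library of either group overlapped another group. Microglia-like cells, the state highest in Mertk, were 27.6 and 64.2% of macrophages/microglia in sham and 2.77 and 3.46% in severe. Median UMIs per macrophage/microglia cell were 6929 and 9572 in sham and 13847 and 17162 in severe. The part of makeup and depth in the Mertk values was not tested. The severe change was -1.21 ± 0.28 (adjusted p = 0.0423, edgeR's quasi-likelihood test). Over 8 other settings, scaling by library size only among them, it ranged from -1.69 to -1.19. The mild change of -0.51 ± 0.28 and the moderate change of -0.70 ± 0.28 did not pass (adjusted p = 0.262 and 0.192, edgeR), nor did severe against moderate, at -0.51 ± 0.28. The severe call was lost without any 1 library other than sham 1 (-1.30 to -1.07), with the replicate number as a block (adjusted p = 0.0655, edgeR) and with only the groups compared in the fit. In the states that could be compared with sham (microglia-like, border-macrophage-like and proliferating) no Mertk change against sham passed. In proliferating cells Mertk stood at 83.1 and 44.9 CPM in sham, 38.8 and 58.1 in mild, 39.6 and 44.0 in moderate and 16.2 and 18.6 in severe, with a severe change of -1.45 ± 0.32 (adjusted p = 0.0641, edgeR). In microglia-like cells it stood at 91.9 and 67.0 CPM in sham, 56.9 and 72.5 in mild, 61.5 and 55.2 in moderate and 37.0 and 24.1 in severe, with a severe change of -1.31 ± 0.33 (adjusted p = 0.194, edgeR). Both severe libraries were the lowest in proliferating and in microglia-like cells.

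**Figure D5:**
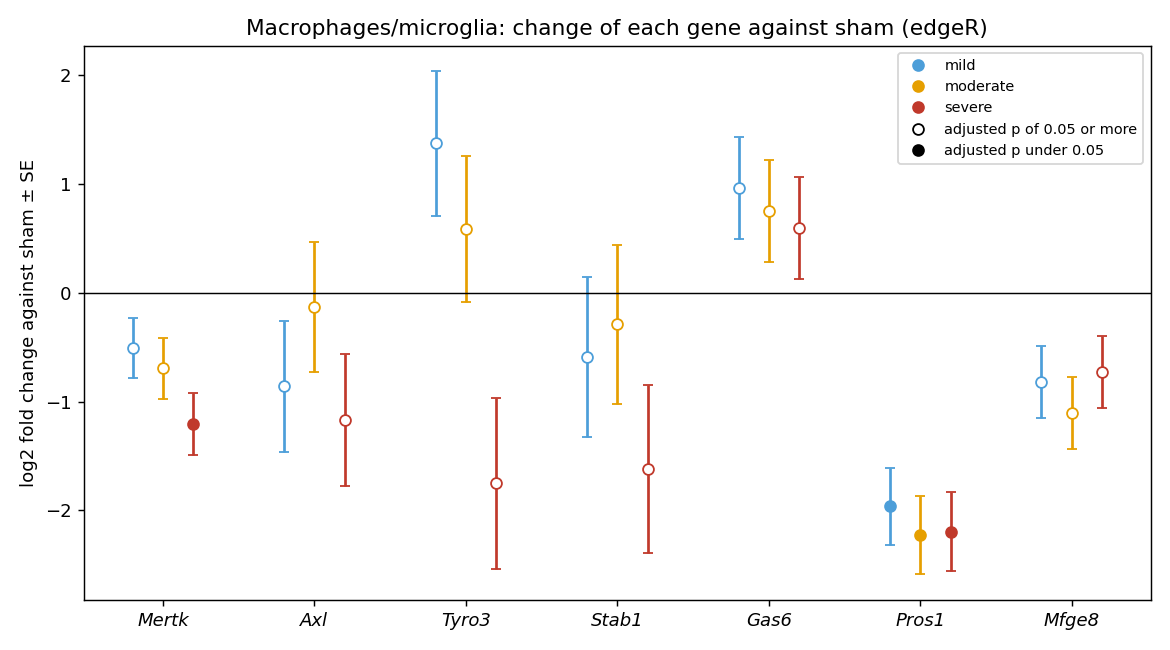
Log2 fold change with its standard error for each measured member in macrophages/microglia, for each injury group against sham, from edgeR's quasi-likelihood fit. Pros1 lay between -2.23 and -1.96 in the 3 groups, and the severe Mertk change was -1.21.

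The other 5 members did not pass in any macrophage/microglia comparison. Axl stood at 23.5 and 98.5 CPM in sham, 29.3 and 37.8 in mild, 64.5 and 52.2 in moderate and 21.7 and 19.8 in severe. The 2 sham libraries were far apart, and in CPM, without TMM scaling, the severe libraries were the lowest of all. Its changes against sham were -0.86 ± 0.60, -0.13 ± 0.60 and -1.17 ± 0.61 in mild, moderate and severe, and their sign turned with the sham library used. Without sham 2 they were 0.80, 1.52 and 0.49, and only the moderate one passed (adjusted p = 0.0359, edgeR's quasi-likelihood test).

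Gas6 stood at 34.7 and 83.2 CPM in sham, 97.3 and 127 in mild, 88.7 and 115 in moderate and 82.6 and 51.3 in severe, with changes of 0.96 ± 0.47, 0.75 ± 0.47 and 0.59 ± 0.47 against sham. Sham 1 was the lowest library and sham 2 lay among the injured ones. Mfge8 stood at 23.3 and 38.4 CPM in sham, 16.8 and 16.9 in mild, 14.9 and 14.0 in moderate and 13.2 and 14.2 in severe. Both sham libraries were above the 6 injured ones for Mfge8, but its changes of -0.82 ± 0.33, -1.10 ± 0.33 and -0.73 ± 0.33 did not pass (adjusted p = 0.148, 0.112 and 0.186, edgeR). Stab1 stood at 8.44 and 1.01 CPM in sham, 2.77 and 2.28 in mild, 3.58 and 2.90 in moderate and 0.784 and 1.05 in severe, with sham 1 the highest and sham 2 among the lowest. Its changes were -0.59 ± 0.73, -0.29 ± 0.73 and -1.62 ± 0.77. Tyro3 was at or below 1.28 CPM in every library and changed by 1.37 ± 0.66, 0.59 ± 0.67 and -1.75 ± 0.79, from 2 to 71 UMIs a library.

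Only microglia-like, border-macrophage-like and proliferating cells could be compared with sham, as a sham library had under 20 cells of each other state. In them these 5 members did not pass against sham either, where the filter on low counts let them be tested. The filter left out Stab1 and Tyro3 in microglia-like cells and Tyro3 in border-macrophage-like cells. Between injury grades it also left out both in monocyte-like cells and Tyro3 in chemokine-high cells. In microglia-like cells Axl stood at 30.3 and 108 CPM in sham, 64.8 and 99.2 in mild, 141 and 139 in moderate and 88.8 and 43.4 in severe, with changes of 0.05 ± 0.57, 0.76 ± 0.57 and -0.18 ± 0.62. Both moderate libraries were the highest and sham 1 the lowest. In proliferating cells Axl stood at 15.6 and 62.7 CPM in sham, 55.9 and 47.7 in mild, 83.7 and 97.7 in moderate and 40.8 and 34.3 in severe, again with both moderate libraries the highest, and changed by 0.86 ± 0.46 in moderate (adjusted p = 0.324, edgeR's quasi-likelihood test). In border-macrophage-like cells both sham libraries were instead the highest, at 44.1 and 95.5 CPM, against 12.8 to 43.0 CPM in the injured ones, and the severe change of -1.62 ± 0.41 did not pass (adjusted p = 0.0678, edgeR). Gas6, which is highest in this state, stood at 106 and 262 CPM in sham, 159 and 189 in mild, 110.1 and 156 in moderate and 126 and 84.7 in severe, with sham 2 the highest and sham 1 near the lowest. Its changes were -0.08 ± 0.41, -0.48 ± 0.41 and -0.48 ± 0.41. Stab1 stood there at 43.0 and 12.1 CPM in sham, 10.0 and 6.02 in mild, 10.2 and 7.12 in moderate and 3.81 and 8.79 in severe, with both sham libraries the highest, and changed by -1.82 ± 0.58, -1.63 ± 0.56 and -1.72 ± 0.60 (adjusted p = 0.104, 0.162 and 0.145, edgeR).

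Severe injury also differed from moderate injury within 2 states. In chemokine-high cells Axl stood at 151 and 134 CPM in moderate and 56.0 and 23.0 CPM in severe libraries. It fell by 1.43 on the log2 scale (adjusted p = 0.0303, edgeR's quasi-likelihood test). In lipid-laden-like cells Axl stood at 19.3 and 14.0 CPM and 1.83 and 5.18 CPM, and fell by 1.79 (adjusted p = 0.0469, edgeR). Stab1 fell in chemokine-high cells as well, from 3.14 and 6.66 to 0.276 and 0.447 CPM, by 3.01 (adjusted p = 0.0176, edgeR). This rested on 17 and 34 UMIs in moderate and on 1 and 15 UMIs in severe. Chemokine-high cells were 9.46 and 13.1% of macrophages/microglia in moderate and 23.1 and 49.0% in severe. Lipid-laden-like cells were 22.1 and 37.6% in moderate and 23.0 and 12.6% in severe. The part of these shares in the falls was not tested. In mild libraries Axl stood at 68.8 and 83.7 CPM in chemokine-high and a mean of 11.1 ± 2.70 CPM (SD, n = 2) in lipid-laden-like cells. The Axl call in chemokine-high cells was lost without mild 1, mild 2, moderate 1 or severe 2 (-2.11 to -0.93), that in lipid-laden-like cells without mild 1, mild 2, moderate 1, moderate 2 or severe 1 (-2.93 to -1.28), and the Stab1 call without moderate 2 or severe 2 (-3.60 to -2.39). Both Axl calls were also lost with only the groups compared and with the stricter state gate, and the lipid-laden-like one with the replicate block and the stricter marker gate. The Stab1 call held in all 9 of these other settings.

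The share of all genes that passed in each state is the background for these counts. In proliferating cells 1 of 7 members passed in mild, moderate and severe against sham, all of them Pros1, beside 1.45%, 1.07% and 1.11% of all genes. In border-macrophage-like cells 0, 1 and 1 of 6 passed against sham, beside 2.65%, 2.37% and 2.6%. In microglia-like cells 0 of 5 passed against sham, beside 0.212%, 0.0223% and 0.167%, where few genes passed at all. Severe against moderate, 2 of 6 members passed in chemokine-high cells beside 12% of all genes and 1 of 7 in lipid-laden-like cells beside 7.45%. In the same contrast 0 members passed in microglia-like (0.39%), border-macrophage-like (1.74%), monocyte-like (2.6%) and proliferating cells (3.13%). Moderate against mild, 0 members passed in any state. All genes passed at 0.0111% in microglia-like, 0.0637% in border-macrophage-like, 0.228% in lipid-laden-like, 0.113% in monocyte-like, 0.0363% in proliferating and 0.479% in chemokine-high cells. At an unadjusted p under 0.05 the contrast of moderate against mild held 0 to 2 members a state.

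Outside macrophages/microglia, Axl rose in oligodendrocytes of moderately injured cords. It stood at 0.895 and 4.43 CPM in sham, 3.75 and 3.51 in mild, 16.5 and 29.6 in moderate and 3.75 and 3.36 in severe. Both moderate libraries lay above every other library. The change was 4.15 ± 0.61 against sham (adjusted p = 0.0160, edgeR's quasi-likelihood test) and 2.46 ± 0.43 against mild (adjusted p = 0.0443), and the severe against moderate change was -2.30 ± 0.52 (adjusted p = 0.0239). On the scale of log2(mean CPM + 1) the moderate against sham difference was 2.72. This scale averages the CPM of both sham libraries equally and adds 1, while edgeR fits the counts. Sham 1 had 10 Axl UMIs among 11172663 UMIs of 1219 cells, and sham 2 had 2 among 451658 UMIs of 37 cells. How much each of these gave to the difference between the 2 scales was not tested. The counts were 28 and 67 UMIs in moderate, 10 and 2 in sham, 33 and 55 in mild and 4 and 14 in severe, from 161 and 134 moderate oligodendrocytes. The call against sham was lost without sham 1 or moderate 2 (2.12 to 4.48 over all 8 fits), that against mild without mild 1, mild 2, moderate 1 or moderate 2 (2.02 to 2.71), and severe against moderate without mild 1, mild 2, moderate 2, severe 1 or severe 2 (-2.56 to -1.87). Of 8 other settings the call against sham held in 8. That against mild held in 4 and was lost with the replicate block, the stricter marker gate, no removal of doublets and the mitochondrial limit of 20%, and severe against moderate was lost with no removal of doublets.

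Of the marker sums given here for these gated oligodendrocytes, only their own list lay outside the range of the other libraries in both moderate libraries. Sums for other types that carry Axl, such as neurons, astrocytes and Schwann cells, are not given here. In moderate 2 these types had 169, 173 and 185 CPM of Axl, from 35, 19 and 12 cells. Their own oligodendrocyte markers summed to 14007 and 9918 CPM there, against 14368 to 21171 CPM in the other 6. The macrophage/microglia list, whose cells carry Axl, summed to 303 and 179 CPM against 56.2 to 352 CPM elsewhere. The oligodendrocyte precursor list, whose cells also carry Axl, summed to 596 and 626 CPM in moderate and 585 to 1155 CPM elsewhere, and the fibroblast list to 63.7 and 43.7 CPM against 0 to 66.9 CPM. Sham 2, with 352 CPM of macrophage/microglia markers in its oligodendrocytes, had 4.43 CPM of Axl in them, from 2 UMIs in 37 cells. The part of other cells' RNA in the Axl values was not tested.

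No other member passed in a gated type. The filter on low counts left out Mertk and Stab1 in oligodendrocytes, Stab1 in oligodendrocyte precursors and fibroblasts, and all but Gas6 and Mfge8 in neutrophils and all but Mfge8 in T cells/NK cells. In endothelial cells it left Mertk, Gas6, Pros1 and Mfge8. In oligodendrocytes 0, 1 and 0 of 5 members passed in mild, moderate and severe against sham, beside 6.15%, 3.57% and 0.846% of all genes, and 1 each in moderate against mild (0.693%) and severe against moderate (13%). Tyro3, their main member, stood at 88.1 and 102 CPM in sham, 139.6 and 114 in mild, 129.9 and 142 in moderate and 124 and 81.9 in severe. Its changes of 0.44 ± 0.27, 0.33 ± 0.28 and 0.35 ± 0.28 against sham did not pass (adjusted p = 0.324, 0.526 and 0.482, edgeR), and sham libraries overlapped severe ones.

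In oligodendrocyte precursors 0 of 6 members passed in any contrast. All genes passed there at 3.49%, 5.87% and 9.22% in mild, moderate and severe against sham, 0.548% in moderate against mild and 9.51% in severe against moderate. Axl stood at 75.3 and 86.5 CPM in sham, 143 and 130.1 in mild, 109 and 207 in moderate and 135 and 55.2 in severe in them, with changes of 0.77 ± 0.40, 0.94 ± 0.40 and 0.52 ± 0.41. Mfge8 came nearest to passing, at 205 and 195 CPM in sham, 257 and 296 in mild, 139.5 and 95.4 in moderate and 136 and 124 in severe, with -1.25 ± 0.27 for moderate against mild (adjusted p = 0.0556, edgeR's quasi-likelihood test). Both mild libraries were the highest and moderate 2 the lowest.

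In fibroblasts sham 2 had 5 cells, so injury was compared between grades only. Of 6 members 0 passed, beside 0% of all genes in moderate against mild (0 by edgeR, 2098 at an unadjusted p under 0.05, 1 of them a member) and 8.07% in severe against moderate. Pros1 stood at 169 CPM in sham 1 and 90.0 to 105 CPM in the injured libraries. In endothelial cells, compared between severe and sham only, 0 of 4 passed beside 0.321%. Gas6 stood there at 205 and 489.6 CPM in sham and 94.4 and 129 CPM in severe, a change of -1.32 (adjusted p = 0.246, edgeR). In neutrophils 0 of 2 passed in moderate against mild (0.218%) and severe against moderate (1.14%), and in T cells/NK cells 0 of 1 (0.285% and 1.7%). Over the 43 comparisons, at most 3 members reached an unadjusted p under 0.05 in any 1 of them.

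Other genes of the pathway were followed in macrophages/microglia through 7 lists of 60 genes, of which 55 were in the gene list and 53 were tested. Against sham 3 rose and 2 fell in mild, 3 rose and 2 fell in moderate and 3 rose and 1 fell in severe, beside 6.27%, 2.31% and 7.7% of all genes in either direction. With 53 genes tested, neither the mild nor the severe count lay far from the background share, while the moderate count lay above it by a few genes. The lists were chosen with earlier results of these data known, so that excess is no independent evidence. Between injury grades 0 passed, beside 0% and 2.65% of all genes for moderate against mild and severe against moderate. Their median change was 0.074, 0.030 and 0.29, beside -0.0039, 0.022 and -0.085 for all genes. Of the 12 genes that handle engulfed cargo, Nr1h3, the liver X receptor that senses oxysterols, rose in all 3 groups. It stood at 5.32 and 2.43 CPM in sham, 30.8 and 20.9 in mild, 17.3 and 17.3 in moderate and 19.2 and 21.0 in severe and changed by 2.95 ± 0.35, 2.31 ± 0.35 and 2.98 ± 0.35. Its target Abca1, the cholesterol exporter, rose by 2.09 ± 0.34 in moderate and 1.82 ± 0.34 in severe. Lipid-laden-like cells were 3.03 and 3.05% of macrophages/microglia in sham and 12.6 to 37.6% in the injured libraries. Microglia-like cells were 27.6 and 64.2% in sham and 1.83 to 12.1% in the injured libraries. The part of this makeup in the changes of Nr1h3, Abca1 and the pathway genes below was not tested.

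In the list of 8 genes named other bridging molecules and eat-me signals, Anxa5, a phosphatidylserine-binding annexin, rose. Its changes were 2.48 ± 0.42, 2.19 ± 0.41 and 2.72 ± 0.42 in mild, moderate and severe. A place in this list does not give the direction of a gene's effect on engulfment. C3, the central complement opsonin, fell. It stood at 133 and 125 CPM in sham, 13.8 and 8.02 in mild, 10.4 and 4.32 in moderate and 5.71 and 7.42 in severe and changed by -3.46 ± 0.48, -4.07 ± 0.49 and -3.78 ± 0.49. Of the 6 tested genes of the engulfment machinery, Elmo1, which with Dock1 activates Rac, fell in mild (-2.71 ± 0.36) and moderate (-2.33 ± 0.36). Of the 17 tested other receptors for dying cells, Scarb1, a class B scavenger receptor, rose in mild (1.65 ± 0.36). Of the remaining lists 0 genes passed against sham by edgeR: the 2 don't-eat-me genes (Cd47 and Sirpa), the 4 genes of receptor shedding and ligand carboxylation, and the 4 tested genes of signalling below the TAM receptors. Of these calls, Nr1h3 in severe held without any 1 library. The other calls in severe were lost without severe 1 (Anxa5, C3) or without severe 1 or severe 2 (Abca1), those in mild without mild 1 or mild 2 and, for Scarb1, also without any 1 moderate or severe library. In moderate C3 was lost without moderate 2, Elmo1 without mild 2 or any 1 moderate or severe library, and Anxa5, Nr1h3 and Abca1 without any 1 injured library. With only the groups compared in the fit, all of these calls but Nr1h3 and C3 in severe were lost. Scarb1 in mild and Anxa5 in moderate were also lost with the replicate number as a block, and Anxa5 in moderate with scaling by library size only.

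The genes whose mean levels ran most like each member over 15 cell types and states were sought among 5800 genes with at least 50 CPM in 1 of them. These correlations are descriptions over 15 points that share libraries, and the states among them are parts of 1 gated type. Mertk ran closest to Tmem176a (Pearson r = 0.95), Tmem176b (0.95), a marker of the macrophage/microglia gate, and Slc7a7 (0.95). Axl ran closest to Nt5dc2 (0.96), Pdpn (0.93) and Cdk14 (0.93), and Tyro3 to Ptprd (0.98), Plcl1 (0.98) and Aplp1 (0.98). Gas6 ran closest to Rab13 (0.93), Abhd14b (0.92) and Cttnbp2nl (0.91). Pros1 ran closest to Fkbp10 (0.95), Tgfb1i1 (0.95) and Selenom (0.94). For Mfge8 these were Abhd17c (0.95), Btg3 (0.94) and Enc1 (0.93), and for Stab1, with the lowest values, Tie1 (0.84), an endothelial marker of the gate, Ch25h (0.82) and Slco2b1 (0.82). Among the members, Axl and Pros1 ran most alike (0.81), followed by Axl and Gas6 (0.75), and the lowest value was that of Mertk and Tyro3 (-0.38).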

How the data were processed

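The authors aligned the reads and counted UMIs with Cell Ranger (version 5.0.1 per the file headers) on rat build Rnor 6.0, and deposited raw UMI counts per gene and cell for each of the 8 libraries, with no normalization. The deposited gene list was matched by symbol. Gene IDs were Mertk ENSRNOG00000017319, Axl ENSRNOG00000020716, Tyro3 ENSRNOG00000058586, Gas6 ENSRNOG00000018233, Pros1 ENSRNOG00000048723, Stab1 ENSRNOG00000018434 and Mfge8 ENSRNOG00000017510.

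From these counts, cells over 10% mitochondrial UMIs, cells beyond 2 SD of a library's mean UMIs or genes, and the 7.7% of cells with the highest Scrublet doublet scores in each library were removed (scanpy 1.11.5, Python 3.11.15). A cell entered a type when at least 3 of its markers were seen and their share led the next type by 0.1. Macrophages/microglia took the state with the highest mean z score, above 0 and leading by 0.1. Cell types were rebuilt from markers and can differ from the authors' own. Levels used libraries with at least 20 cells of a unit, and 3 counts of the total served as the limit for a count of 0.

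Counts were summed per library and unit and tested with edgeR 4.0.16 in R 4.3.3 (TMM, low-count filter, quasi-likelihood test, all groups in 1 fit, Benjamini-Hochberg adjustment over all genes, threshold 0.05). A contrast was fitted where both groups kept 2 libraries. DESeq2 1.42.0 was an alternative, with other scaling, no filter, a replicate block, only the groups compared, each library left out, stricter gates, no doublet removal, a mitochondrial limit of 20%, thinning to 500 UMIs, a pseudocount of 10 CPM and a minimum of 100 cells. All-pair tests of types and states were chosen after seeing the data. The members, marker lists and pathway lists were chosen with earlier results of these data known.

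Named genes were all members, pathway genes past the test (at most 4 a list, by smallest p), and the 3 genes most correlated with each member over the means of types and states. Promoter sequences came from RefSeq, build GRCr8. On counts simulated for severe against sham in macrophages/microglia (13526 genes, 100 changed by each fold), the test recovered 4% of genes changed by 1 on the log2 scale and 48% of those changed by 2, with 4 false calls. In that simulation a change of 1 was thus mostly missed. Intervals cover counting error only.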

Additional observations from a re-analysis of the deposited data

Results flagged for a closer look

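Some members moved one way against sham in every library of an injury group in one cell type and the opposite way in every library in another. These differences were not tested, and values are the log2 difference of group mean CPM + 1. Both sham libraries enter each of them.

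Axl, the Gas6 receptor, rose above both sham libraries in moderate injury in oligodendrocytes (2.72), proliferating cells (1.19), microglia-like cells (1.01) and oligodendrocyte precursors (0.96). It lay below both sham libraries in border-macrophage-like cells in moderate (-0.78). There moderate 2, at 43.0 CPM, lay only just under sham 1, at 44.1 CPM, while sham 2 stood at 95.5 CPM. In mild injury the same split held between oligodendrocyte precursors (0.75) and border-macrophage-like cells (-1.19). Of these, only the oligodendrocyte change passed the edgeR test across all genes.

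Stab1, the scavenger receptor, was lower in border-macrophage-like cells in mild (-1.66) and moderate (-1.56) but higher in microglia-like cells (1.11 and 1.34) and proliferating cells (0.98 and 1.54). The changes in border-macrophage-like and proliferating cells did not pass the edgeR test, and Stab1 was too low in microglia-like cells to be tested there. Sham 1 alone held 43.0 CPM in border-macrophage-like cells.

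Mertk in moderate injury was higher in oligodendrocyte precursors (0.81) and lower in macrophages/microglia (-0.72), microglia-like (-0.44) and proliferating cells (-0.60). The macrophage/microglia value includes the cells of those states. In precursors Mertk was near the floor, at 1.48 ± 1.29 CPM (SD, n = 8) from 65 UMIs in all libraries. Mfge8 in mild injury was higher in oligodendrocytes (1.76) and oligodendrocyte precursors (0.47) and lower in macrophages/microglia (-0.84) and border-macrophage-like cells (-0.57). None of these Mertk and Mfge8 changes passed the edgeR test.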

How the results depend on the processing

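Of 964 recomputed log2 fold changes of members and pathway genes, 761 kept their direction and their side of the threshold, 163 lost a call, 24 gained one and 16 changed sign. Only changes called in the main fit could lose a call, and the 964 also hold changes that were never called. The 163 lost calls are therefore not a share of 964. Of 147 recomputed counts of members or pairs, 64 were labelled as moved and 83 as the same. Of 158 recomputed levels and shares 3 moved beyond the spread between libraries. The cause of the changes below was not tested unless stated. In macrophages/microglia 1, 1 and 2 members passed in mild, moderate and severe against sham. Without the low-count filter these were 2, 2 and 4, with 2 in severe against moderate and 33 in place of 11 over the other types and states. DESeq2 gave 2 in moderate, the replicate block 1 in severe and 5 elsewhere, and scaling by library size alone 1 in severe against moderate. With only the groups compared, which leaves fewer libraries to estimate the spread, 0 passed in each and 5 elsewhere, and the stricter state gate left 4 elsewhere. Leaving out 1 library gave 0 to 4 members in mild, 0 to 3 in moderate, 0 to 4 in severe, 0 to 3 in severe against moderate and 1 to 24 elsewhere. Axl in moderate against sham turned to 0.094 with the replicate block. Under library size alone the median of all genes shifted to -0.57 in severe against sham and -0.52 in severe against moderate, from -0.085 and -0.059, and Mfge8 and Pros1 in severe against moderate turned to -0.082 and -0.42. Leaving out 1 library ranged over a change of sign for Axl (mild -1.58 to 0.80, moderate -0.87 to 1.52, severe -1.89 to 0.49), Stab1 (mild -1.46 to 1.29, moderate -1.17 to 1.57, severe -2.48 to 0.28) and Tyro3 in moderate (-0.33 to 1.60), all with sham 1 and sham 2 at the ends. It did so too for Mertk in moderate against mild (-0.53 to 0.20) and, in severe against moderate, for Pros1 (-0.17 to 0.34) and Gas6 (-0.47 to 0.086). Testing all pairs in place of neighbours raised 0 to 56 for cell types and 0 to 46 for states. With at least 100 cells both were 0, and leaving out 1 library gave 0 to 56 and 0, since fewer libraries raise the smallest possible p.

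Counts of all genes past the test in macrophages/microglia moved more. They were 848, 313, 1041, 0 and 359 in mild, moderate and severe against sham, moderate against mild and severe against moderate. DESeq2 called 2159, 1358, 2281, 249 and 1276, no filter 2443, 1875, 2571, 474 and 1512, the replicate block 318, 124, 673, 1 and 208, and only the groups compared 0, 0, 137, 43 and 734. Library size alone called 2408 in severe against sham, of which 397 rose (653 of 1041 with TMM), and 1522 in severe against moderate, of which 129 rose (138 of 359 with TMM). Leaving out 1 library gave 0 to 1968, 0 to 1397, 160.0 to 1885, 0 to 30.0 and 50.0 to 1428. The labels do not say what same-numbered libraries share beyond their number. Deviations of same-numbered libraries correlated at 0.23, -0.26, -0.15, 0.096, 0.28 and -0.31 over the 6 pairs of groups. With 2 libraries a group these values cannot tell whether same-numbered libraries share a batch. The block fit also lost the Mertk call in severe, both border-macrophage-like and 2 proliferating Pros1 calls, Axl in lipid-laden-like cells and in oligodendrocytes for moderate against mild, and 2 pathway calls, Scarb1 in mild and Anxa5 in moderate. The number of libraries, 2 a group, and the few UMIs of Stab1 and Tyro3 in macrophages/microglia limit these values.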

Other observations

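Within single macrophages/microglia, thinned to 5000 UMIs so that depth was equal, members were seen together at different rates. Values are medians over libraries of the percent of cells with a UMI. Mertk was seen in 22.3% of cells with Pros1 and 15.3% of cells without it, higher in 8 of 8 libraries. Axl was seen in 27.2% of cells with Pros1 and 12.4% of cells without it, higher in 7 of 8. Pros1 was seen in 10.1% of cells with Mfge8 and 6.08% of cells without it, higher in 8 of 8. Gas6 was seen in 52.0% of cells with Stab1 and 32.1% of cells without it, higher in 5 of the 5 libraries that had enough such cells. Gas6 with Mfge8 (33.5% against 28.4%) was higher in 4 of 8 libraries, and Mertk with Mfge8 (15.5% against 15.8%) in 5 of 8. These are 6 of 15 pairs computed, and no test was run on them. The macrophage states also differ in these members, and their part in the shares was not tested.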
